A study of Mus musculus with 4 samples.

Results

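The Fc receptors considered here are 7 mouse genes, Fcgr1, Fcgr3, Fcgr4, Fcer1g, Fcgr2b, Fcgrt and Fcer2a, chosen by name as receptors for the constant part of antibodies or as their signalling chain. Probes were assigned to them through the RefSeq accession printed on the array, and each gene was hit by 1 probe, so that 7 of 39429 gene probes and 7 of 19751 named genes are described. They were measured in dendritic cells grown from bone marrow with and without conditional deletion of Rbpj, the transcription factor that activated Notch joins on DNA. The Rbpj-deficient cells (BMDC_RFF11, 2 arrays) carried Rbpj fl/fl alleles and a CD11c-cre transgene, which puts the recombinase under the CD11c (Itgax) promoter, and the control cells (BMDC_RFF, 2 arrays) carried Rbpj fl/fl alleles alone. All donors were C57BL/6 females aged 8 weeks, and all cultures received 20 ng/mL of the cytokine GM-CSF for 6 days before CD11c+ cells were isolated. The labels give RNA pools of 4 mice per genotype and do not say whether the 2 arrays of a genotype held separate pools, so the spread behind every p-value is that between arrays and could be technical alone. No array carried the cre with intact Rbpj, and loss of Rbpj and presence of the cre cannot be told apart in any value below.

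Fc receptors tell a cell that an antigen is coated with antibody. The activating IgG receptors Fcgr1 (CD64), Fcgr3 (CD16) and Fcgr4 (CD16-2) have no signalling motif of their own in the mouse and work through Fcer1g, the FcR gamma chain, whose tyrosine motif (ITAM) is phosphorylated by Src-family kinases and recruits Syk. Fcgr2b (CD32B) binds the same immune complexes and carries an inhibitory motif (ITIM) that recruits the lipid phosphatase Inpp5d (SHIP1), so the balance of activating and inhibitory receptors sets the threshold at which immune complexes activate a dendritic cell. Fcgrt (FcRn), a class I-like heavy chain that pairs with B2m, protects IgG and albumin from breakdown in endosomes and steers immune complexes towards antigen presentation. Fcer2a (CD23) is a lectin that binds IgE with low affinity and is best known from B cells.

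Of all 7 genes only Fcgr1 passed the test, and it was lower in Rbpj-deficient cells. Levels are log2 processed signal minus the 75th percentile of the same array, and a level is compared between genotypes only, never between probes. The test was limma over all 17974 genes with Benjamini-Hochberg adjustment and a threshold of 0.05, at which 338 genes or 1.88% were called, 0.84% lower and 1.04% higher in Rbpj-deficient cells. All 7 probes were well above background on every array, and the 7 genes entered the test. Their log2 changes were all below 0, as 52.7% of the genes tested were, with -0.61 the lowest, one within 0.01 of 0 and a median of -0.25, against -0.01 over all genes. Groups did not overlap, with Rbpj-deficient cells lower, for 5 of the 7, where 32.3% of the genes tested show this and 59.1% do not overlap in either direction. At an unadjusted p under 0.05, 4 of the 7 were lower, against 12.8% of the genes tested. Fcgr4 and Fcer2a were the 2 genes whose groups overlapped.

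Fcgr1, the high-affinity IgG receptor, fell to 65.5% of the control signal. Its probe gave a processed signal of 7958 and 7980 on the Rbpj-deficient arrays, against 11184 and 12398 on the control arrays. On the relative log2 scale it averaged 2.46 ± 0.00 in Rbpj-deficient cells and 3.08 ± 0.07 in control cells (SD, n = 2 each). Both Rbpj-deficient arrays were thus below both control arrays, by far more than replicates differed. The log2 change was -0.61 (SE 0.06, 95% interval -0.78 to -0.44, limma adjusted p = 0.0424). Without any single array it no longer passed (adjusted p between 0.126 and 0.171, log2 change between -0.66 and -0.56) nor did it when dim probes were kept in the test (adjusted p = 0.278). With 1 array left out limma called at most 1 gene in all, and every called gene named here then lost its call. In bulk RNA such as this, fewer cells that express a gene and less RNA per cell cannot be told apart.

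**Figure D1:**
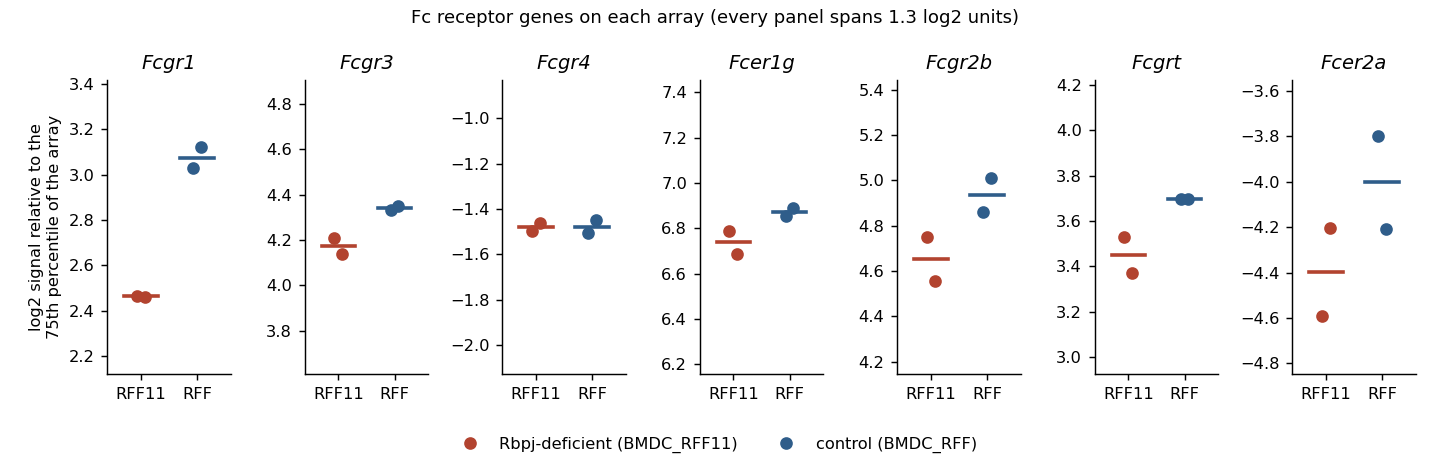
Scaled log2 level of each Fc receptor gene, with 1 point per array, a bar for the mean of a genotype, Rbpj-deficient cells in red and control cells in blue. The panels have equal height but different offsets, and Fcgr1 shows the widest gap relative to the spread of its arrays, while Fcgr4 shows none.

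Fcgr1 is also a marker by which macrophages are told from dendritic cells, so the macrophage and monocyte markers were read beside it. Their signal summed over the 9 markers tested, as multiples of the 75th percentile, was 206 and 207 on the Rbpj-deficient arrays, against 205 and 209 on the control arrays, so the groups overlapped, but most of this sum is Csf1r. Of the 9, 5 had an unadjusted p under 0.05, 3 lower and 2 higher, against 24.1% of all genes tested. Fibronectin (Fn1) fell by 1.56 on the log2 scale (limma adjusted p = 0.0422), and the other 8 did not pass, among them Csf1r at 0.04, Adgre1 at 0.34, Mertk at -0.15, Cd14 at -0.28, Ccr2 at -0.58 (limma adjusted p = 0.101) and Ly6c1 at 0.76 (limma adjusted p = 0.118). The other probe of Ly6c1 gave 0.37. Dendritic cell markers summed to 994 and 932 in Rbpj-deficient cells and 1080 and 1044 in control cells, so the groups stood apart. Most of these sums is Cd74 (-0.10), H2-Ab1 (-0.07) and Mgl2 (-0.27). Of the dendritic cell markers 0 of 9 tested passed in limma, with 3 at an unadjusted p under 0.05 against the same 24.1%. Ccr7, the receptor for migration to lymph nodes, was the farthest from 0 among the dendritic cell markers at -0.48 (limma adjusted p = 0.0931). What part either cell type has in the change of Fcgr1 was not tested.

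The promoter of Fcgr1 is shown because the gene passed the test and because its human counterpart has a known interferon-gamma response element, a GAS motif. The window runs from 250 bases before to 50 bases after the RefSeq start (GRCm38.p6, minus strand, chr3:96293920-96294219), with matches in capitals.
Fcgr1: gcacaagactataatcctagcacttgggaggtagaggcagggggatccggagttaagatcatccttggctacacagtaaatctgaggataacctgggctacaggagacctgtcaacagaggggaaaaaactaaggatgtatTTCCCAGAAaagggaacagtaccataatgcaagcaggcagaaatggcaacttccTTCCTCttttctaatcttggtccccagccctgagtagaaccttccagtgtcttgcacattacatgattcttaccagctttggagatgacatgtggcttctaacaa
Matches were sought on both strands for the GAS motif TTCNNNGAA, the core of RBPJ sites TGGGAA, the wider spacing of the same arms preferred by STAT6, and the PU.1 core GAGGAA. The first run of capitals, 109 to 101 bases before the start, matches GAS, and its first 6 bases are the RBPJ core on the opposite strand, so both motifs share those letters. The second run, 55 to 50 bases before the start, is the PU.1 core on the opposite strand. Among all 32851 windows of this length in the RefSeq table, 8.3% hold a GAS match, 25.6% an RBPJ core, 28.3% a PU.1 core and 6.95% the STAT6 spacing, and 1.28% hold an RBPJ core inside a GAS match. These are matches of letters and say nothing of binding in these cells. The interferon-gamma receptor chains stood at 0.01 for Ifngr1 and -0.19 for Ifngr2, the PU.1 gene Spi1 at -0.04 and Irf8 at -0.01, and these 4 did not pass (limma adjusted p of 0.186 or more).

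Fcgr3, the low-affinity activating IgG receptor, lay slightly lower without passing. It gave a processed signal of 26619 and 25476 on the Rbpj-deficient arrays, against 27627 and 29052 on the control arrays. Its relative level averaged 4.17 ± 0.05 in Rbpj-deficient cells and 4.34 ± 0.01 in control cells (SD, n = 2 each). The groups did not overlap, and the log2 difference of -0.17 (SE 0.06) had an adjusted p of 0.195 in limma. Its 95% interval ran from -0.33 to -0.01, and under quantile normalisation it was -0.10.

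Fcgr4, the receptor for IgG2a and IgG2b, differed between genotypes by less than the spread of the arrays. It gave a processed signal of 511 and 525 in Rbpj-deficient cells and 482 and 521 in control cells. Relative to the array it averaged -1.48 ± 0.02 in Rbpj-deficient cells and -1.48 ± 0.04 in control cells (SD, n = 2 each). The log2 difference was 0.00 (95% interval -0.16 to 0.16, limma adjusted p = 0.994), and its sign turned between processing settings. A difference as large as that of Fcgr1 lies outside this interval.

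Both Fcgr3 and Fcgr4 are also made by neutrophils, and 7 of 8 neutrophil markers tested lay higher in Rbpj-deficient cells at an unadjusted p under 0.05, which 24.1% of all genes reach in either direction, while Elane lay at -0.14. The neutrophil markers summed to 45.0 and 36.3 on the Rbpj-deficient arrays, against 21.7 and 24.9 on the control arrays, in multiples of the 75th percentile, sums made mostly by S100a9 and S100a8. Of the 8, myeloperoxidase Mpo (0.74, limma adjusted p = 0.0378) and the granule protein Ngp (0.54, limma adjusted p = 0.0445) rose and 6 did not pass, with S100a9 the farthest from 0 at 0.85 (limma adjusted p = 0.0813). Retnlg was not well above background on any array. The call of Ngp was lost under median scaling, and Mpo stood at 0.47 with normexp. The part of neutrophils in the values of Fcgr3 and Fcgr4 was not tested.

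Fcer1g, the signalling chain that all 3 activating receptors need, did not pass. Its processed signal was 159288 and 149328 on the Rbpj-deficient arrays, against 158788 and 169103 on the control arrays, with no spot saturated. After scaling it averaged 6.74 ± 0.07 in Rbpj-deficient cells and 6.87 ± 0.03 in control cells (SD, n = 2 each). The groups then stood apart by -0.13 on the log2 scale (SE 0.06, 95% interval -0.31 to 0.04, limma adjusted p = 0.293), although the unscaled signals overlapped. Under quantile normalisation the difference was -0.04, and with 1 array left out it ranged from -0.18 to -0.08.

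Fcgr2b, the inhibitory receptor, lay lower in Rbpj-deficient cells without passing. Its probe is printed in 10 spots on each array, which gives a measure of error within an array that the other 6 genes lack. The 10 spots ranged from 36794 to 41588 and from 32516 to 37308 on the Rbpj-deficient arrays, against 37239 to 42265 and 42968 to 48264 on the control arrays. Spots on 1 array differed by an SD of 0.04 to 0.06 on the log2 scale, whereas the means of replicate arrays differed by more, with levels of 4.75 and 4.55 in Rbpj-deficient cells and 4.86 and 5.01 in control cells. The groups did not overlap in scaled level, and the log2 difference was -0.28 (SE 0.10, 95% interval -0.56 to -0.01, limma adjusted p = 0.203). It ranged from -0.38 to -0.19 when 1 array was left out.

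**Figure D2:**
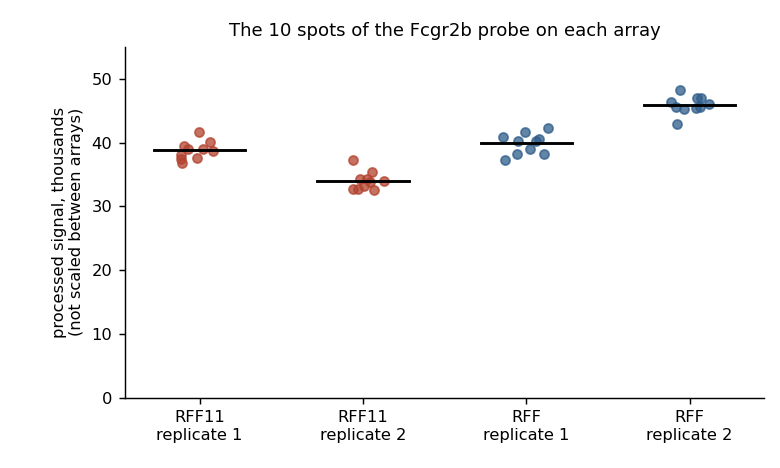
Processed signal, before scaling between arrays, of the 10 spots of the Fcgr2b probe on each array, with a black bar for the mean of the array and an axis that starts at 0. The spots of Rbpj-deficient replicate 2 lie lowest and those of control replicate 2 highest, and the other 2 arrays overlap.

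Fcgrt and its partner B2m lay lower by like amounts, neither passing. Fcgrt gave a processed signal of 16624 and 14989 on the Rbpj-deficient arrays, against 17783 and 18440 on the control arrays. Its level averaged 3.45 ± 0.11 in Rbpj-deficient cells and 3.70 ± 0.00 in control cells (SD, n = 2 each), with no overlap. The log2 difference was -0.25 (SE 0.08, 95% interval -0.45 to -0.04, limma adjusted p = 0.169). B2m, the light chain that FcRn shares with class I molecules, read 6.95 and 6.75 in Rbpj-deficient cells and 7.12 and 7.17 in control cells, a log2 difference of -0.30 (SE 0.09, limma adjusted p = 0.16).

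Fcer2a was near the lower end of what the arrays measured. Its processed signal was 59.8 and 78.6 on the Rbpj-deficient arrays, against 98.7 and 77.0 on the control arrays, where the lowest signals counted as well above background were 23.4 to 30.3. The scaled levels were -4.59 and -4.20 in Rbpj-deficient cells and -3.80 and -4.21 in control cells, so the groups overlapped. The log2 difference of -0.39 (SE 0.21, 95% interval -0.96 to 0.17, limma adjusted p = 0.325) was close to the gap between replicates of each genotype, and it was -0.14 after normexp, a background correction that shrinks dim differences, and -0.60 to -0.19 with 1 array left out. Among the B cell markers Ebf1, Ms4a1, Pax5 and Vpreb3 were not well above background on any array, 4 others were tested and 0 passed in limma, with Cd79b alone at an unadjusted p under 0.05 (0.57, adjusted p = 0.0932, or 0.30 with normexp). The 4 tested markers, mostly Cd22, summed to 0.545 and 0.525 in Rbpj-deficient cells and 0.513 and 0.506 in control cells. The part of B cells in the values of Fcer2a was not tested.

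A promoter of Fcer2a is shown because its human counterpart is a known target of Notch and RBPJ in B cells. That counterpart is also induced by interleukin-4 through STAT6. Of the RefSeq starts of Fcer2a the second is printed, whose window held the most motif matches, 3 against 0 and 1. The window is on the minus strand of GRCm38.p6 at chr8:3690812-3691111, marked for the same 4 motifs.
Fcer2a: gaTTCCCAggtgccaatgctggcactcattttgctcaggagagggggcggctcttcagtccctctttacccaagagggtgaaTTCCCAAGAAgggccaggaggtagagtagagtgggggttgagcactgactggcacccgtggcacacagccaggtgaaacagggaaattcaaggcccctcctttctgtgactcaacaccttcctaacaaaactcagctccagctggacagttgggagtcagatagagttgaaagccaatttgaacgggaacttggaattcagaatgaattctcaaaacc
The first run of capitals, 248 to 243 bases before this start, is the RBPJ core on the opposite strand. The second, 168 to 159 bases before it, has the STAT6 spacing and again begins with the RBPJ core on the opposite strand, an overlap found in 0.454% of all windows. Since the window printed is the one of its gene with the most matches, that share does not measure how unusual the overlap is here. The window of the first start of Fcer2a held none of the 4 motifs and that of the third start held 1 RBPJ core. Windows of Fcgr3 and Fcgr4 held a PU.1 core only, and those of Fcgr2b, Fcer1g and Fcgrt held none of the 4. On the side of expression, the interleukin-4 receptor Il4ra (-0.34, limma adjusted p = 0.0716), Stat6 (-0.07, adjusted p = 0.481) and Adam10, the protease that sheds CD23 (-0.19, adjusted p = 0.176), did not pass.

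**Figure D3:**
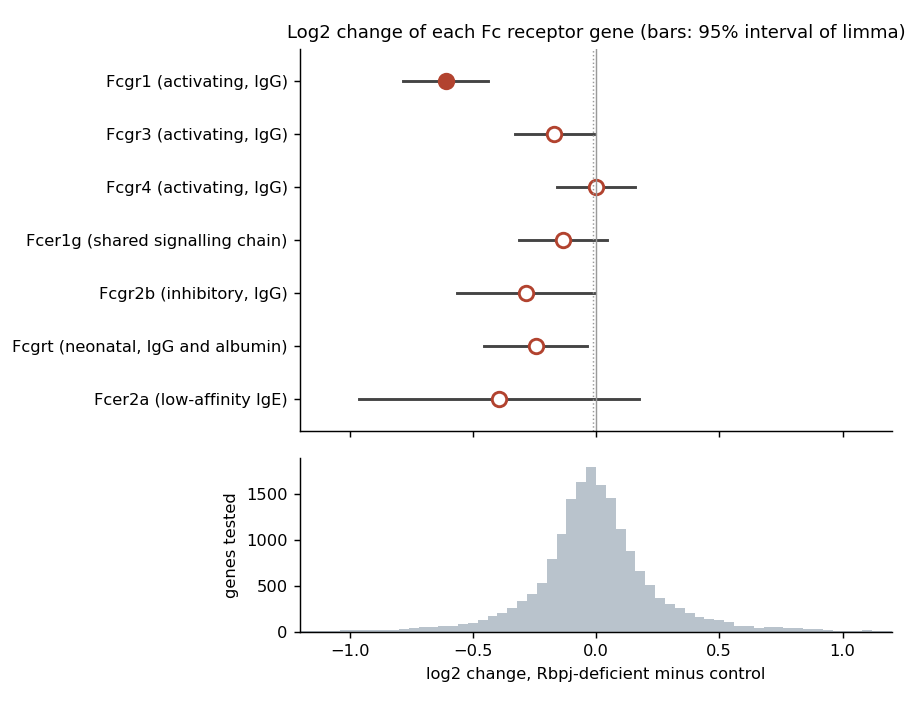
Log2 change of each Fc receptor gene, Rbpj-deficient minus control, with the 95% interval of the limma fit (upper panel, filled where the adjusted p is below 0.05), above the distribution of the log2 changes of all genes tested (lower panel, with 188 genes beyond the axis). Fcgr1 is the only filled point, at -0.61, and the intervals of Fcgr4, Fcer1g and Fcer2a cross 0.

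Set against the inhibitory receptor on the same array, the activating receptors gave shifts of either sign, which are described here without a test. The log2 level of Fcgr1 minus that of Fcgr2b was -2.28 and -2.09 on the Rbpj-deficient arrays, against -1.83 and -1.89 on the control arrays. The shift was -0.33 on the log2 scale, and the groups stood apart. For Fcgr4 the same difference was -6.25 and -6.02 in Rbpj-deficient cells and -6.37 and -6.46 in control cells, a shift of 0.28 the other way. Fcgr4 itself changed by -0.0008, so this shift is the change of Fcgr2b (-0.28, not past the threshold) with its sign turned. The signalling chain Fcer1g shifted by 0.15 against Fcgr2b, with the groups apart. Fcer1g itself changed by -0.13, less than Fcgr2b (-0.28), and neither passed. Fcgr3 shifted by 0.12 with overlapping groups. The mean of the 3 activating receptors minus Fcgr2b was -3.02 and -2.84 in Rbpj-deficient cells, against -2.91 and -3.00 in control cells, a shift of 0.02 that is smaller than the SD of either group and turned sign with 1 array left out (-0.07 to 0.12). Against its own signalling chain, Fcgr1 minus Fcer1g was -4.32 and -4.23 in Rbpj-deficient cells and -3.83 and -3.77 in control cells. For the neonatal receptor, Fcgrt minus Fcgr2b shifted by 0.04 with overlapping groups, and by -0.04 to 0.12 with 1 array left out. An exact permutation test of 2 arrays against 2 cannot go below a two-sided p of 0.333, and no model was fitted to these shifts.

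**Figure D4:**
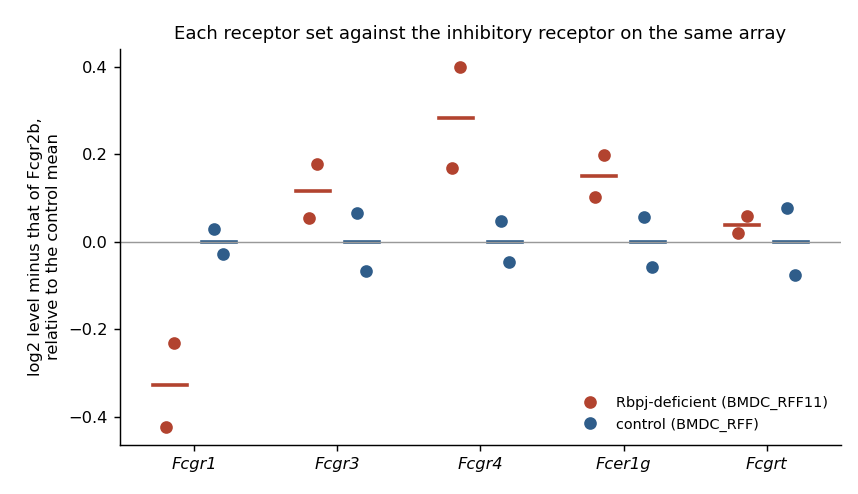
Log2 level of 5 receptor genes minus that of Fcgr2b on the same array, given relative to the control mean, with 1 point per array, a bar for the mean, Rbpj-deficient cells in red at the left of each pair and control cells in blue. Fcgr1 lies below the control arrays by 0.33 on average, Fcgr4 above them by 0.28, Fcer1g above them by 0.15, and Fcgrt among them. The level of Fcgr4 itself changed by -0.0008, so its shift is that of Fcgr2b with the sign turned. Fcer1g itself changed by -0.13, against -0.28 for Fcgr2b.

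The kinases and adaptors downstream of the ITAM went in both directions. Of 24 tested, 1 rose and 1 fell, where 1.04% and 0.84% of all genes did, and 22 did not pass, with a median of 0.11 against -0.01 over all genes. An unadjusted p under 0.05 was reached by 10 of the 24, 7 higher and 3 lower, against 24.1% of all genes in either direction. Card9, the adaptor that links Syk to NF-kappaB, rose by 0.63 on the log2 scale (SE 0.06, limma adjusted p = 0.0379), with levels of -0.54 and -0.55 in Rbpj-deficient cells and -1.21 and -1.14 in control cells. Blnk, a scaffold for Syk and Btk best known from B cells, fell by 1.19 (SE 0.08, limma adjusted p = 0.0322), with levels of 2.05 and 2.17 in Rbpj-deficient cells and 3.24 and 3.36 in control cells. With 1 array left out the adjusted p was 0.131 to 0.163 for Card9 and 0.12 to 0.148 for Blnk. Syk itself stood at 0.18 (limma adjusted p = 0.21) and the Src-family kinase Lyn at 0.13 (limma adjusted p = 0.389).

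On the inhibitory side 0 of 14 genes tested passed in limma, with 6 at an unadjusted p under 0.05, 3 lower and 3 higher, against 24.1% of all genes tested, and the median was -0.07. SHIP1 (Inpp5d), which Fcgr2b recruits, stood at 0.21 (limma adjusted p = 0.157) and the phosphatase SHP-1 (Ptpn6) at 0.29 (limma adjusted p = 0.127). The adaptor Dok3 was the farthest from 0 at 0.55 (limma adjusted p = 0.0657). Pag1 was not tested because it was too dim.

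Other receptors that signal through the FcR gamma chain, with related adaptors, lay mostly lower and 0 of 9 tested passed in limma, while 4 had an unadjusted p under 0.05, all lower, against 12.8% of all genes tested. Their median was -0.21. Lilra6, a member of the paired immunoglobulin-like receptors, was the farthest from 0 at -0.49 (limma adjusted p = 0.064), and its 3 probes ranged from -0.49 to -0.43. Genes of that family are near-identical in sequence and their probes may not separate them. Among other Fc receptors 6 of 11 were tested and 0 passed in limma, with 3 at an unadjusted p under 0.05 against 24.1% of all genes, a median of -0.05 and the IgM receptor Fcmr the farthest from 0 at 0.43 (limma adjusted p = 0.192), or 0.27 without Rbpj-deficient replicate 1.

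**Figure D5:**
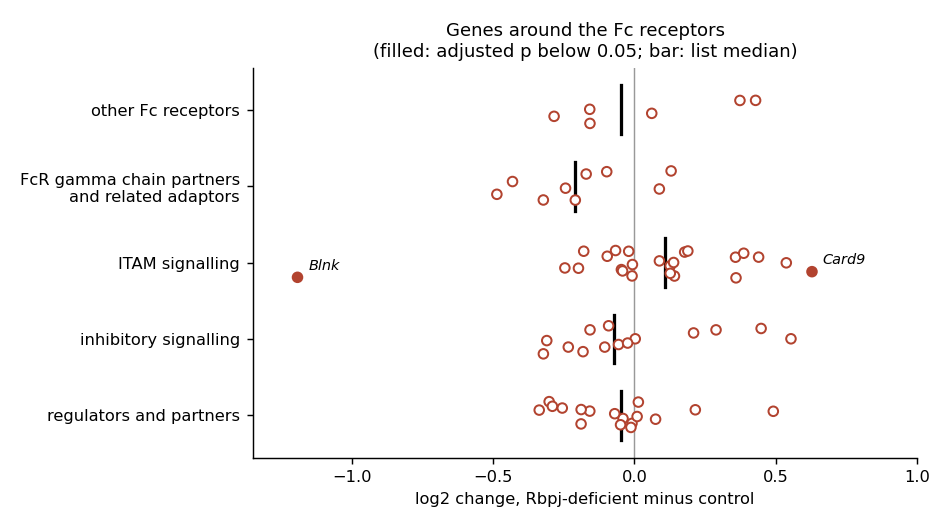
Log2 change, Rbpj-deficient minus control, of the tested genes in 5 lists around the Fc receptors, with 1 point per gene, filled where the limma adjusted p is below 0.05, and a black bar for the median of the list. Card9 at 0.63 and Blnk at -1.19 are the filled points, and the list medians lie between -0.21 and 0.11.

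Both chains that define the high-affinity IgE receptor, Fcer1a and Ms4a2, were not well above background on any array, so Fcer1g signal here was not accompanied by measured signal of that receptor. Other mast cell and basophil markers lay higher in Rbpj-deficient cells. They summed to 2.65 and 2.37 there, against 1.72 and 1.86 in control cells. Of 7 tested Hdc, which makes histamine, rose by 0.48 (limma adjusted p = 0.0477), where 1.04% of all genes were called higher. The other 6 did not pass, with Mcpt8 the farthest from 0 at 1.13 (limma adjusted p = 0.0502). At an unadjusted p under 0.05 stood 5 of the 7, all higher, which 24.1% of all genes reach in either direction. Natural killer cells, whose Fc receptor is Fcgr3, left the markers Ncr1, Eomes and Gzma not well above background on any array. Of 7 natural killer and T cell markers tested Klrb1c rose by 1.14 (limma adjusted p = 0.0379), with 0.87 on its other probe, and 6 did not pass. At an unadjusted p under 0.05 stood 5 of these 7, 2 lower and 3 higher, against the same 24.1%. Cd3g was the farthest from 0 at 1.40 (limma adjusted p = 0.104). The list summed to 4.24 and 4.27 in Rbpj-deficient cells and 4.84 and 4.62 in control cells, sums made mostly by Nkg7 (-0.21). The call of Hdc was lost under quantile and median scaling, and that of Klrb1c when its probes were averaged. With normexp Klrb1c stood at 0.62 and Cd3g at 0.88. The part of these cells in the values of Fcer1g and Fcgr3 was not tested.

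Regulators and partners of single receptors, 17 genes that include B2m, Stat6 and the GM-CSF receptor chains, gave 0 calls in limma. At an unadjusted p under 0.05 stood 7, 6 lower and 1 higher, against 24.1% of all genes in either direction and 12.8% lower. The list had a median of -0.05, with Cr2 the farthest from 0 at 0.49 (limma adjusted p = 0.226). Cr2 was not well above background on all 4 arrays, stood at 0.04 with normexp and ranged from 0.23 to 0.75 with 1 array left out. Among the genes tested, Fcgr2b, Fcgr4 and Fcgr3 adjoin each other on chromosome 1. The 2 tested genes on each side of each receptor, 20 genes beside the receptors themselves, ranged from -1.33 to 0.40 on the log2 scale with a median of -0.06. In limma 0 of the 20 passed, and 5 had an unadjusted p under 0.05, a share near the 24.1% of all genes.

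By Euclidean distance between centred log2 levels over the 4 arrays, the 2 named genes nearest to Fcgr1 were Traf3ip2 (distance 0.016, log2 change -0.62, limma adjusted p = 0.0435) and Zfp786 (distance 0.033, log2 change -0.60, limma adjusted p = 0.0379). Within a distance of 0.1 lay 35 of 12754 genes for Fcgr1 and 1479 for Fcgr3, so likeness to Fcgr3 singles out little. With normexp the change of Traf3ip2 was -0.38, and that of Zfp786 was -0.21 and did not pass. The nearest genes were Ccnk and Hcst for Fcgr3, Fam168a and Rnf19a for Fcgr4, Rpl36a and Prkab1 for Fcer1g, Ly86 and Tmem104 for Fcgr2b, Evi5 and Ccser2 for Fcgrt, and H1f10 and Acot3 for Fcer2a.

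Rbpj read 1.37 and 1.44 on the Rbpj-deficient arrays, against 2.69 and 2.61 on the control arrays, a fitted difference of -1.25 in log2 level (SE 0.06, limma adjusted p = 0.0278). Rbpj-deficient cells thus kept 42.1% of the control signal on this probe and 42.3% on the other probe of Rbpj. Where the probes of Rbpj lie relative to the deleted part is not known here. Itgax read 6.65 and 6.45 in Rbpj-deficient cells and 6.69 and 6.63 in control cells (limma adjusted p = 0.523). Between 55.2% and 58.4% of 43020 gene spots were well above background, replicates correlated at 0.997 and 0.998 across genes, and all 4 arrays shared 1 slide, on which place and genotype cannot be told apart. Fcgr2b and Fcgr3 have similar extracellular domains, and whether their probes separate them was not tested.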

How the data were processed

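Total RNA (150 ng) was labelled with Cy3 and hybridised to one-colour Agilent mouse arrays, per the labels' protocols. Spot intensity was read by the authors with Agilent Feature Extraction 10.7.1.1 per the file headers, which subtracted background and did not scale between arrays. Flags (well above background, saturated, outlier) were set by that software, per the file headers. How the authors made the deposited log2 table is not given in the sources used here. Compared with scanner values, it was centred on the median of each probe, in the same direction (slope 0.999 to 1.00 and Pearson r of at least 0.99995 in each column over 39426 probes, column medians -0.03 to 0.05), and it served as an alternative. Columns of other samples numbered 0.

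From the signal, log2 values minus the 75th percentile of each array were taken, 127 to 176 outlier spots per array were left out and replicate spots were averaged. A probe entered if well above background on both arrays of either genotype (it counted where at least 0.5 of its spots did), each gene took its brightest probe, and limma 3.58.1 in R 4.3.3 (lmFit, eBayes) was fitted to all 17974 genes. Intervals are at 95%. With so few arrays, their number limits precision. Of 39429 probes 26055 received 1 symbol from RefSeq (GRCm38.p6), 0 several and 13374 none. The array annotation is of build mm9 per the file headers. Promoter sequences are those of RefSeq on GRCm38.p6, with windows for all 7 genes.

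The named genes are the 7 receptors, Rbpj and Itgax, every called gene and the gene farthest from 0 in each related list and marker list, B2m, Syk, Lyn, Inpp5d and Ptpn6, and the 2 nearest genes per receptor. Csf1r, Adgre1, Mertk, Cd14, Ccr2, Ly6c1, Cd74, H2-Ab1, Mgl2, Elane, Nkg7, Cd22, Ifngr1, Ifngr2, Spi1, Irf8, Il4ra, Stat6 and Adam10 were named outside this rule, as were the motifs, after values were seen. The members and lists were chosen with earlier results of these data known. Alternatives were other scaling, background, filter, probe, outlier and variance settings, the deposited table, a replicate block and each array left out.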

Additional observations from a re-analysis of the deposited data

How the results depend on the processing

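Fcgr1 stayed below 0 in all 15 alternatives (log2 change -0.66 to -0.56) and passed in 9. It did not pass with dim probes kept (-0.61, adjusted p = 0.278), with the replicate number of the labels as a block (-0.61, adjusted p = 0.11) or with 1 array left out (-0.66 to -0.56), where an arm of 1 array is assumed to vary like the other genotype. No other Fc receptor passed in any alternative, and Fcgr3, Fcer1g, Fcgr2b, Fcgrt and Fcer2a stayed below 0 in all 15. Fcgr4 turned to 0.0456 with normexp and 0.00318 in the deposited table, and ranged from -0.0299 to 0.0283 with 1 array left out. Fam168a turned to 0.00296 with quantile normalisation, 0.0169 with normexp and 0.00125 in the deposited table, and ranged from -0.0312 to 0.0257 with 1 array left out, and Rnf19a turned to 0.000601 in the deposited table and ranged from -0.0309 to 0.0241. The shifts of Fcgr1, of Fcgrt and of the mean of the 3 activating receptors against Fcgr2b have no test. With 1 array left out they ranged from -0.42 to -0.23 for Fcgr1, and turned sign for Fcgrt (-0.04 to 0.12) and for the activating mean (-0.07 to 0.12).

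The number of genes called was 338, but 988 with normexp (499 higher, 489 lower), 1547 with a trended and robust variance prior (694 higher, 853 lower, against 187 and 151), 0 with dim probes kept (3655 at an unadjusted p under 0.05), 0 with the replicate block (3677 at an unadjusted p under 0.05), and 0 to 1 with 1 array left out (2976 to 3506 at an unadjusted p under 0.05). In the block of replicate numbers, same-numbered deviations correlated at -0.05 over 17973 genes, so the numbers are not taken to pair the arrays. Normexp used the median spot signal with an offset of 50 and was chosen after seeing the data, since the planned version on the mean signal was not run for want of that column. The cause of these shifts was not tested. Fcer2a is limited by its dim signal.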
